A study of Rattus norvegicus with 9 samples.

Results

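The angiogenic ligands and hypoxia factors were 10 genes of the rat knee cartilage transcriptome, chosen by name from a table of 32043 genes. They comprised the vascular endothelial growth factors Vegfa, Vegfb, and Vegfc, the angiopoietins Angpt1 and Angpt2, the angiopoietin-like factor Angptl4, the receptor Flt1 and the co-receptor Nrp1, and the oxygen-regulated transcription factor subunits Hif1a and Epas1. Their levels were measured by RNA sequencing of cartilage tissue, with 3 libraries in each of 3 groups (control, model, and SYD). Male Sprague–Dawley rats, 8 weeks old at purchase, were used in all groups. Control rats had sham surgery, with the joint capsule opened and closed again. In the model group, knee osteoarthritis (KOA) was induced in the left knee by the modified Hulth method, in which the medial collateral and anterior cruciate ligaments and the medial meniscus were removed, followed by 4 weeks of daily forced activity. The SYD group received the same surgery and then Shengyu decoction (SYD), a prescription of botanical drugs, by gavage for 4 weeks. Tissue of all groups was taken at 8 weeks from surgery. The sample labels give this group no dose, and the study describes the sequenced SYD rats as the high-dose group of its 3 doses. The sources used here do not say whether the 3 libraries of a group came from separate rats, so the p-values measure the spread between libraries only.

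Healthy articular cartilage has no blood vessels, and its chondrocytes live at low oxygen. Under low oxygen, the alpha subunits HIF-1α (from Hif1a) and HIF-2α (from Epas1) escape degradation, pair with ARNT, and activate genes such as Vegfa and Angptl4. Both subunits are regulated largely at the protein level, which RNA does not show. VEGF-A signals mainly through VEGFR2 (from Kdr), whereas VEGF-B and placental growth factor bind VEGFR1 (from Flt1), which also acts as a decoy for VEGF-A. Angiopoietin-1 activates the endothelial receptor TIE2 (from Tek), and angiopoietin-2 competes with it. In osteoarthritis, vessels enter the cartilage from the subchondral bone.

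The libraries differed in composition, and every comparison below rests on them. Whole reads recovered from the FPKM values (read or fragment numbers corrected for gene length and library size) summed to 14914121 to 19510537 per library. Transcripts of the mitochondrial chromosome took 4.05% to 4.86% of these reads in the control group, 39.5% to 90.7% in the model group, and 23.7% to 72.7% in the SYD group, which left 1744769 to 11106680 other reads in the model libraries. Chondrocyte markers (14 genes, including Col2a1 and Acan) summed to 490 to 11545 FPKM in control, 211 to 947 in model, and 196 to 2651 in SYD libraries. All 14 were above 0 in every control library, 11 in every model library (Matn3, Cnmd, and Col9a2 were at 0 in at least 1), and 13 in every SYD library (Matn3 was not). Control library 2 had the lowest sum of its group, and osteoblast, neutrophil, and erythroid markers were also abundant. Erythroid markers (7 genes measured) summed to 6540 to 16261 FPKM in control, 296 to 42451 in model, and 1311 to 13572 in SYD libraries. Endothelial markers (14 genes measured) summed to 67.4 to 100.3 FPKM in control, 40.2 to 420 in model, and 207 to 263 in SYD libraries, and Pecam1, Kdr, Tek, and Tie1 were all at 0 in model library 1. In bulk tissue, fewer cells of a type and less RNA per cell cannot be told apart. The extraction text in the labels names retinas, but retinal markers summed to at most 3.50 FPKM.

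All 10 genes were detected in at least 2 libraries of every group, and each stands in the table as a protein-coding gene. Vegfa lies on chromosome 9, Vegfb on 1, Vegfc and Angpt2 on 16, Angpt1 and Angptl4 on 7, Flt1 on 12, Nrp1 on 19, and Hif1a and Epas1 both on 6. In the control group, Hif1a had the highest mean level (16.4 ± 7.86 FPKM, SD, n = 3), followed by Epas1 (14.6 ± 5.28), Nrp1 (9.86 ± 0.749), and Vegfa (5.94 ± 2.93). The other 6 genes lay between 1.82 FPKM (Vegfc) and 3.28 FPKM (Angpt1). Neighbours in this order differed by less than the larger of their SDs, except Nrp1 and Vegfa. In the model group Epas1 came first (35.9 ± 12.2 FPKM) and Angptl4 last (1.39 ± 1.77), and all neighbours in between lay within the larger of their SDs. In the SYD group Epas1 (33.4 ± 4.90) was followed by Vegfa (27.3 ± 14.7), Hif1a (23.6 ± 7.31), and Nrp1 (9.89 ± 3.80), and Vegfc was last (1.998 ± 1.26), with Hif1a and Nrp1 as the neighbours set apart by more than their SDs. The spread between model libraries was wide: the coefficient of variation was 25.9% for Vegfa but 128% for Flt1 and 127% for Angptl4, against 7.59% for Nrp1 and 8.96% for Angpt1 in control libraries. The plot of FPKM by library shows these values.

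**Figure D1:**
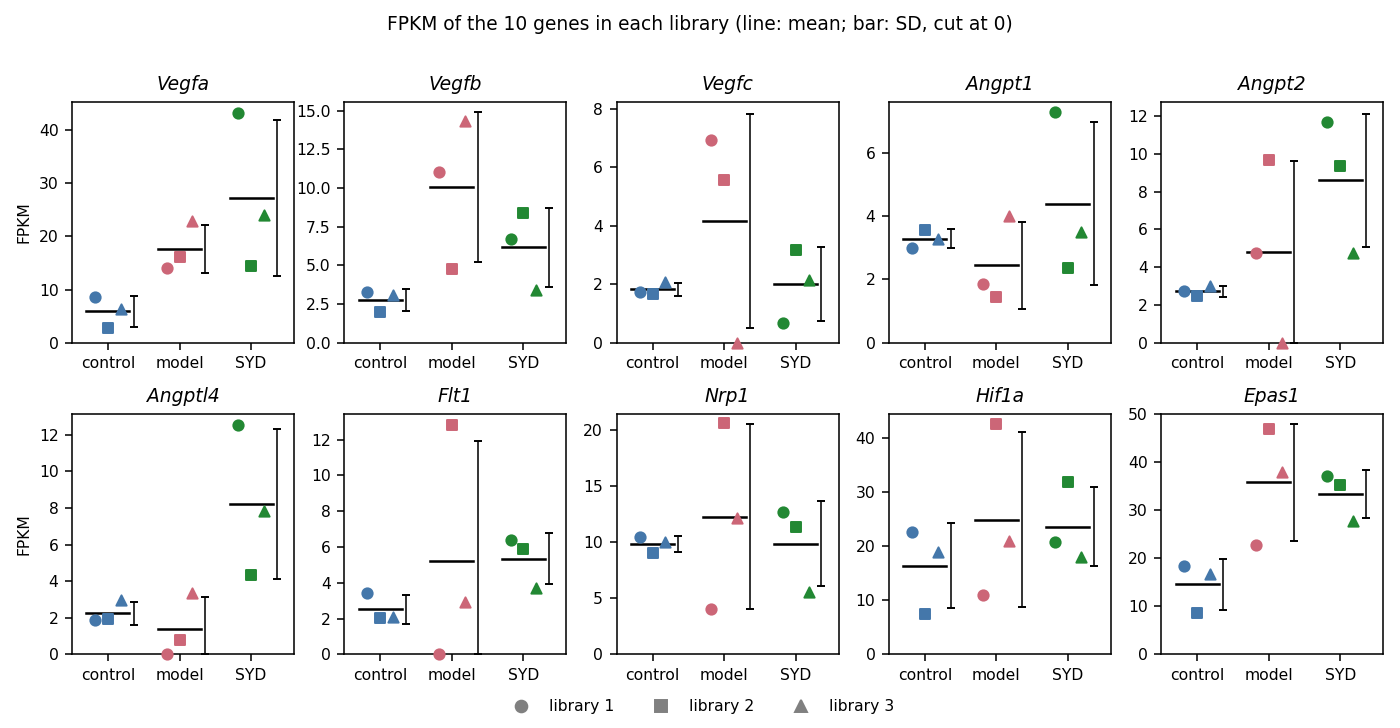
FPKM (linear axis from 0) of the 10 genes in the 3 control, 3 model, and 3 SYD libraries; marker shapes give the library number, lines the group mean, and bars the SD. Vegfa, Vegfb, and Epas1 lie higher in every model library than in every control library, and Angptl4 lies higher in every SYD library than in every model library; on TPM over all genes the first 3 of these differences turn negative.

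Hypoxia response elements are the short sites, with the core ACGTG or GCGTG, that HIF dimers bind. Promoter sequences from RefSeq (build GRCr8) were at hand for 8 of the 10 genes, in 9 windows since Vegfa has a pair of annotated starts. The upstream sequences of 5 genes are shown because their genes carry the comparisons below: Vegfa, Vegfb, and Epas1 were higher in the model group on the deposited scale, Angptl4 was higher in the SYD group than in the model group, and Hif1a encodes the other alpha subunit beside that of Epas1. Each line gives the 250 bases before the annotated start in the direction of transcription, and capitals mark a core on either strand (ACGTG or GCGTG on the sense strand, CACGT or CACGC for the antisense strand). The windows are chr9:22452604-22452853 (plus strand) for Vegfa, chr1:213607153-213607402 (minus strand) for Vegfb, chr6:13624730-13624979 (minus strand) for Epas1, chr7:15258682-15258931 (minus strand) for Angptl4, and chr6:98359648-98359897 (plus strand) for Hif1a.
Vegfa: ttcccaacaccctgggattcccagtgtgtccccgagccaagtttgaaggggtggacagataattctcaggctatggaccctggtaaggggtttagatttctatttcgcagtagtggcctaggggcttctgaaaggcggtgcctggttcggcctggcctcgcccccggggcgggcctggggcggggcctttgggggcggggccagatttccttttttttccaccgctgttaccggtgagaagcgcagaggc
Vegfb: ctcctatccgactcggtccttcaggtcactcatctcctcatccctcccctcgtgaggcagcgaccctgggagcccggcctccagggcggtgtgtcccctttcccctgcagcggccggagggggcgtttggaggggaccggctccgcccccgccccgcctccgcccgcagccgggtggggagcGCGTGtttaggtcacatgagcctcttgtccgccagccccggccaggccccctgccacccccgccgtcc
Epas1: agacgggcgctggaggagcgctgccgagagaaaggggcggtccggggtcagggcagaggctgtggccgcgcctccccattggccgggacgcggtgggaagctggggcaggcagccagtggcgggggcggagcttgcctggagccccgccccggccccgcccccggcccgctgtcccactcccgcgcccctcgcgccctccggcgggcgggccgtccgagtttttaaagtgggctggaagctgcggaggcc
Angptl4: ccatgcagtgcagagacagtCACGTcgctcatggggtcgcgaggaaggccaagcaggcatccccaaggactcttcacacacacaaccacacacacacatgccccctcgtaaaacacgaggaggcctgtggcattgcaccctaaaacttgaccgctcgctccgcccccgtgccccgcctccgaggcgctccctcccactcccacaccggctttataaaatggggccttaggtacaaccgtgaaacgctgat
Hif1a: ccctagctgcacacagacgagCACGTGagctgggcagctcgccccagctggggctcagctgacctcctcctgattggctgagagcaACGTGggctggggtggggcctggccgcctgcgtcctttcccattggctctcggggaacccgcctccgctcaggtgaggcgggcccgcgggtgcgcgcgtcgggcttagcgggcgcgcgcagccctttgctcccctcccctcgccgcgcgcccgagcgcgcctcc
A core was found in 5 of the 9 windows, and 36.7% of all 33469 promoter windows of this length hold one. Hif1a held 3 cores, with the first pair overlapping in one palindrome, whereas Vegfb, Angptl4, Flt1, and Nrp1 held 1 each, and none was found in the windows of Vegfa, Vegfc, or Epas1. The functional element known for Vegfa lies further upstream than this window reaches. G and C made up 56.0% to 76.8% of the bases in these 9 windows, and the median over all windows was 51.2%. A match here is a match of letters only.

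The first comparison, model against control, asked what surgery changed in this set. Epas1, which encodes HIF-2α, read 18.4, 8.58, and 16.8 FPKM in control libraries and 22.8, 46.9, and 37.9 FPKM in model libraries (libraries 1 to 3 in each group). The lowest model library stood above the highest control library. By limma, its log2 fold change of FPKM + 1 was 1.25 (SE 0.40, unadjusted p = 0.0194, adjusted p = 0.166), a 2.46-fold ratio of the means. All p-values below that are not called exact are from this fit. Hif1a, by contrast, read 22.6, 7.52, and 19.0 FPKM in control libraries and 11.1, 42.7, and 21.0 FPKM in model libraries. The groups overlapped, with control library 2 lowest and model library 2 highest, and the log2 fold change was 0.51 (SE 0.60, adjusted p = 0.677).

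Among the VEGF ligands, Vegfa, the main driver of vessel growth, read 8.66, 2.84, and 6.32 FPKM in control libraries and 14.1, 16.1, and 22.8 FPKM in model libraries. No control library reached a model library, and the log2 fold change came to 1.50 (SE 0.41, unadjusted p = 0.0104, adjusted p = 0.122). The ratio of the means was 2.98. Vegfb, a ligand of VEGFR1, read 3.25, 1.97, and 3.05 FPKM in control libraries and 11.02, 4.79, and 14.4 FPKM in model libraries. These groups did not overlap either, and the log2 fold change was 1.46 (SE 0.45, unadjusted p = 0.0164, adjusted p = 0.154). Vegfc, a growth factor of lymphatic vessels, read 1.73, 1.67, and 2.06 FPKM in control libraries and 6.93, 5.56, and 0 FPKM in model libraries. A pair of model libraries thus stood above every control and the third had no read, which allows up to 0.237 FPKM, and the log2 fold change was 0.41 (SE 0.83, adjusted p = 0.824).

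The receptors and angiopoietins were not separated between these groups. Flt1, encoding VEGFR1, read 3.46, 2.01, and 2.12 FPKM in control libraries and 0, 12.8, and 2.92 FPKM in model libraries. Model library 1 had no Flt1 read (up to 0.120 FPKM), whereas model library 2 held 2317 reads, and the log2 fold change was 0.12 (SE 0.94). Nrp1, a co-receptor for VEGF-A and semaphorins, lay at 9.04 to 10.5 FPKM in control and 4.10 to 20.6 FPKM in model libraries. Angpt1, the TIE2 agonist, lay at 2.99 to 3.57 and 1.45 to 4.003 FPKM. Angpt2, the context-dependent TIE2 antagonist released by endothelium, read 2.72, 2.44, and 3.02 FPKM in control and 4.73, 9.67, and 0 FPKM in model libraries. Angptl4, a HIF and PPAR target that inhibits lipoprotein lipase, read 1.86, 1.92, and 2.97 FPKM in control libraries and 0, 0.788, and 3.38 FPKM in model libraries. For these 5 genes the adjusted p ran from 0.569 for Angptl4 to 0.971 for Angpt2, and the 95% confidence intervals of the log2 fold change were wide (for Angpt2, from -2.05 to 2.21).

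Of the set, 0 of the 10 genes passed an adjusted p of 0.05 in model against control, while 2.59% of the 13898 genes tested did. With voom on the recovered reads, 0 of the 10 and 3.32% of all tested genes passed. At an unadjusted p under 0.05, 3 did, against 19.2% of all tested genes. By the study's criteria for differentially expressed genes (DEGs), an absolute log2 fold change over 1 at an unadjusted p under 0.05, 3 genes were called higher (Vegfa, Vegfb, and Epas1) and 0 lower, against 3.55% of all tested genes called higher and 11.2% called lower. The same 3 genes were the ones with every model library above every control library, which 8.65% of all tested genes showed. Marker sums of B lineage cells did not overlap between these groups either (6.17 to 56.0 FPKM in model and 253 to 330 in control libraries), and their part in the result was not tested. The median log2 fold change was 0.26 over the 10 genes and -0.23 over all tested genes. Without control library 2, whose readings of Vegfa, Vegfb, Epas1, and Hif1a were the lowest of its group, 1 DEG (Vegfa) was left, and without model library 3 there were 5. Those 5 were Vegfa, Vegfb, Vegfc, and Angpt2 as higher and Angptl4 as lower (-1.27). Epas1 was not among them (log2 fold change 1.18, unadjusted p = 0.0592). Dropping model library 2 removed the call of Epas1 as well (1.03, unadjusted p = 0.0642). The share of DEGs in either direction over all tested genes was 14.7% with all libraries, 9.42% without control library 2, and 14.3% without model library 3. With model library 2 as the only model library, 5 of the 10 genes (Vegfc, Angpt2, Flt1, and Nrp1 higher and Angpt1 lower) and 26.3% of all tested genes had an adjusted p under 0.05, but Vegfa, Vegfb, and Epas1 did not (adjusted p = 0.165, 0.164, and 0.0848). In this fit that library is assumed to vary like the controls.

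The sign of the model differences depended on how the libraries were scaled. The authors' FPKM do not follow the total of recovered reads, since the library size implied by the values was 0.193 to 1.44 times the recovered reads in the model group and 2.01 to 2.18 times in the control group. On a TPM scale, which adds to the same total in each library after length correction, taken over all genes with the mitochondrial ones included, Vegfa, Vegfb, and Epas1 had log2 fold changes of -1.37, -1.25, and -1.79, while the median of all tested genes moved to -2.60. Relative to that median, the values were 1.23, 1.34, and 0.81. Rescaled to TPM without mitochondrial genes, they were 1.42, 1.47, and 1.07, with the all-gene median at -0.64. On that scale Vegfa and Vegfb met the DEG criteria but Epas1 did not, while 16.3% of all tested genes were DEGs. These 3 genes had been called higher on the deposited scale, and on TPM over all genes Vegfc and Flt1, whose groups overlapped, lay as far above the median as Epas1 (0.90 and 0.81).

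**Figure D2:**
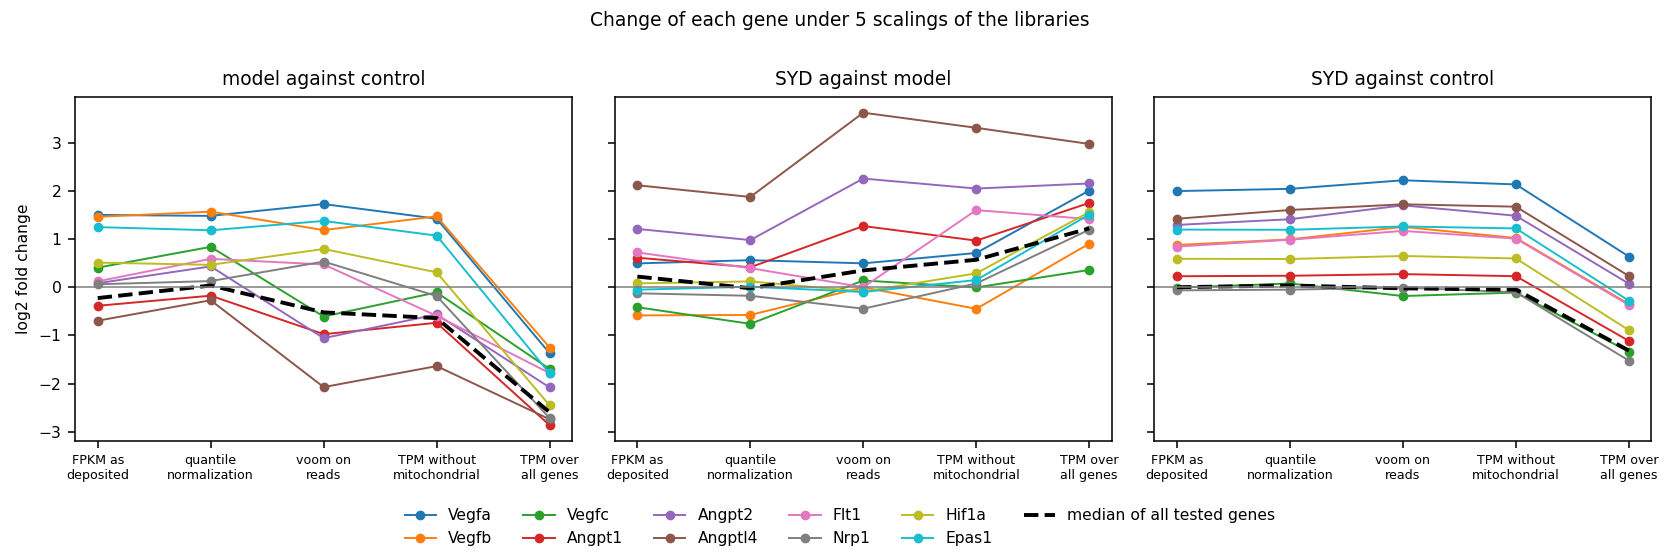
Log2 fold change of each gene (solid lines) and median of all tested genes (dashed line) in the 3 comparisons under 5 settings. Of these, voom keeps the library sizes implied by the deposited FPKM and does not rescale the libraries. In model against control, Vegfa, Vegfb, and Epas1 stay above the dashed line at every setting but cross 0 on TPM over all genes, where the median lies at -2.60.

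The second comparison, SYD against model, asked what SYD changed after surgery. Angptl4 was the gene that separated these groups, with 12.5, 4.34, and 7.85 FPKM in the SYD libraries against 0, 0.788, and 3.38 FPKM in the model libraries. Every SYD library stood above every model library, and the recovered reads were 606, 225, and 165 against 0, 38, and 41. The log2 fold change was 2.12 (SE 0.68, 95% confidence interval 0.48 to 3.76, unadjusted p = 0.0191), but the adjusted p was 0.723. The ratio of the means was 5.93. Under other settings the log2 fold change was 3.62 (voom), 3.31 (TPM without mitochondrial genes), 2.97 (TPM over all genes), and 1.87 (quantile normalization). The medians of all tested genes were 0.35, 0.57, 1.22, and -0.02 in the same order. Angptl4 no longer met the DEG criteria without model library 2 (unadjusted p = 0.0532), SYD library 1 (0.0825), or SYD library 3 (0.0622) in limma. These fits had 2 libraries left in the reduced group. Of all tested genes, 4.15% were DEGs with all libraries and 17.95% when model library 2 was dropped. The share was 2.27% when SYD library 1 was dropped and 3.73% when SYD library 3 was. Angptl4 met the criteria in 13 of 16 alternative settings. Marker sums of osteoblasts (9928 to 10946 FPKM in SYD and 1587 to 9672 in model libraries) and osteoclasts (1979 to 2650 and 443 to 1752) did not overlap between these groups either, and their part in the result was not tested.

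The other 9 genes overlapped between SYD and model. Vegfa read 43.3, 14.5, and 24.1 FPKM in SYD libraries, with library 1 highest and library 2 within the model range, and the log2 fold change was 0.49 (SE 0.44, adjusted p = 0.733). Vegfb read 6.69, 8.41, and 3.38 FPKM, which on the log2 scale was a difference of -0.58 (SE 0.51, adjusted p = 0.728), with 2 of the 9 library pairs higher in SYD. Epas1 read 37.0, 35.3, and 27.8 FPKM in SYD libraries, all inside the model range, with a log2 fold change of -0.05 and a 95% confidence interval of -0.85 to 0.74. Hif1a read 20.8, 31.9, and 18.1 FPKM, and its log2 fold change of 0.08 had an interval of -1.15 to 1.31. Nrp1 (12.7, 11.4, and 5.56 FPKM) and Vegfc (0.672, 3.18, and 2.14 FPKM) had log2 fold changes of -0.13 and -0.41. Angpt1 (7.30, 2.36, and 3.51 FPKM), Angpt2 (11.7, 9.37, and 4.75 FPKM), and Flt1 (6.42, 5.91, and 3.73 FPKM) had log2 fold changes of 0.61, 1.21, and 0.72. The intervals of Vegfc, Flt1, Nrp1, and Hif1a reach past 1 in both directions, so that a 2-fold difference either way was not excluded for them.

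None of the 13898 genes tested passed an adjusted p of 0.05 in SYD against model (0%), by limma on FPKM or by voom, while 731 had an unadjusted p under 0.05. With no filter on low values, 2 of 21960 genes passed, and neither was among the 10. Accordingly, 0 of the 10 genes passed. Of the 10 genes, 1 was called a DEG and higher (Angptl4), and 0 were called lower, against 3.62% of all tested genes called higher and 0.532% called lower. Angptl4 was also the 1 gene with every SYD library above every model library, a pattern that 7.89% of all tested genes had. The median log2 fold change was 0.29 over the 10 genes and 0.22 over all tested genes.

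The third comparison, SYD against control, shares its SYD libraries with the second and its control libraries with the first, so the 3 sets of values are not independent. Vegfa rose in the SYD group by 1.996 on the log2 scale (SE 0.50, adjusted p = 0.0460), a ratio of the means of 4.60. Angpt2 rose by 1.29 (SE 0.32, adjusted p = 0.0439), a ratio of 3.16. Epas1 rose by 1.20 (SE 0.30, adjusted p = 0.0466), a ratio of 2.29. For all 3 genes each SYD library stood above each control library. These adjusted p-values lie just under the threshold, and none of the 3 genes passed when any single control library or SYD library 1 was left out. Of the 6 fits that left out 1 library, Epas1 passed in 0, and Vegfa and Angpt2 passed in 1 each. The share of all tested genes that passed dropped as well, from 17.3% to 5.45%, 4.26%, and 1.50% without control library 1, 2, or 3 and to 11.8% without SYD library 1. Their calls were also lost with no filter on low values, on TPM without mitochondrial genes, in 1 fit of all 9 libraries, and with the replicate number as a block. Over 15 alternative settings, Vegfa passed in 4, Angpt2 in 5, and Epas1 in 3. On TPM over all genes, the log2 fold changes of Vegfa, Angpt2, and Epas1 were 0.64, 0.07, and -0.28, with an all-gene median of -1.31, and none of the 3 passed.

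Angptl4 met the DEG criteria in SYD against control (log2 fold change 1.42, SE 0.37, unadjusted p = 0.00879), with an adjusted p of 0.0504. Flt1 had a value of 0.84 (SE 0.26, adjusted p = 0.0795), and Vegfb had 0.88 (SE 0.33, adjusted p = 0.125). In both, every SYD library was above every control library. Hif1a (0.59, SE 0.44), Angpt1 (0.23, SE 0.35), Vegfc (-0.01, SE 0.36), and Nrp1 (-0.06, SE 0.30) overlapped between the groups. In total, 3 of the 10 genes had an adjusted p under 0.05, against 17.3% of all tested genes. By the DEG criteria, 4 were higher and 0 lower, against 7.25% and 9.22% of all tested genes, and 6 had every SYD library above every control library, which held for 20.3% of all tested genes. The median log2 fold change was 0.86 over the 10 genes and 0 over all tested genes.

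Endothelial marker sums stood beside these values at 207 to 263 FPKM in SYD and 67.4 to 100.3 FPKM in control libraries, and osteoblast marker sums at 9928 to 10946 and 3086 to 6077 FPKM. Sums over markers of pericytes and smooth muscle (125 to 447 against 30.4 to 82.2 FPKM), synovial fibroblasts (544 to 2062 against 112 to 312), and osteoclasts (1979 to 2650 against 606 to 1048) were also higher in every SYD than in every control library, and those of B lineage cells (8.18 to 40.3 against 253 to 330) were lower. Angpt2, Flt1, and Epas1 are all expressed by endothelium, and the part of any of these cells in the result was not tested. An exact permutation test of each single gene over 3 libraries against 3 cannot go below p = 0.1, and 10 of the 30 tests (10 genes, 3 comparisons) reached that value (Benjamini-Hochberg adjusted p = 0.3).

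**Figure D3:**
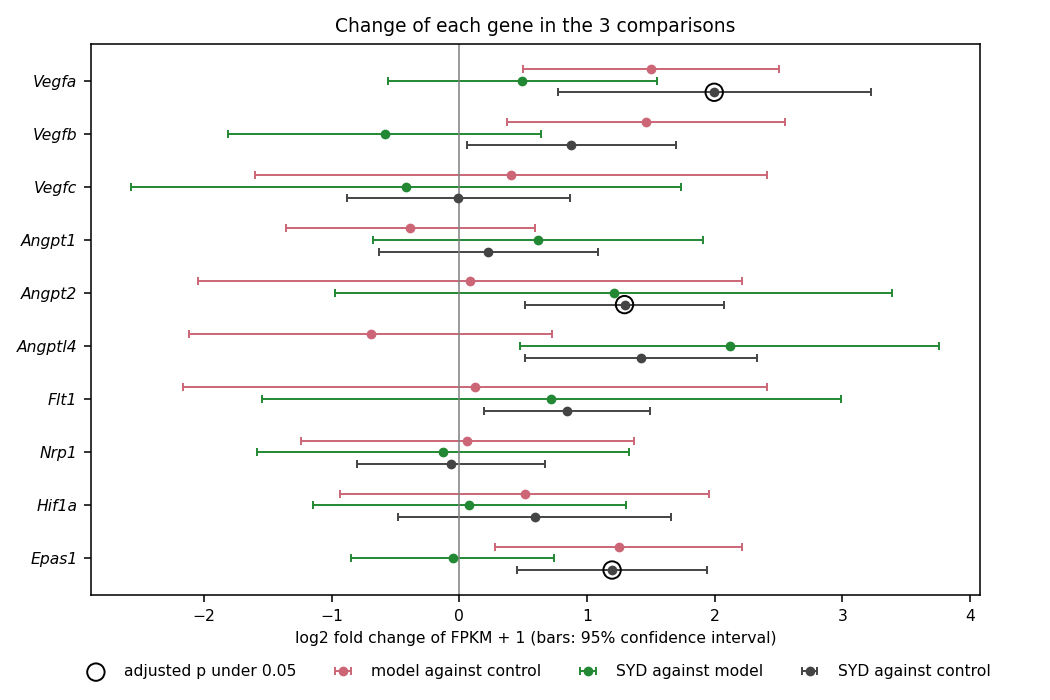
Log2 fold change of FPKM + 1 with its 95% confidence interval for the 10 genes in the 3 comparisons; rings mark an adjusted p under 0.05. Rings stand on Vegfa, Angpt2, and Epas1 in SYD against control, and the interval of Angptl4 in SYD against model runs from 0.48 to 3.76; on TPM over all genes Epas1 turns negative (-0.28) in SYD against control.

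Ratios of 2 genes within a library do not depend on how that library was scaled. Hif1a to Epas1 stood at 1.22, 0.876, and 1.13 in control, 0.486, 0.911, and 0.554 in model, and 0.563, 0.902, and 0.650 in SYD libraries. Library 2 of the model and SYD groups thus lay within the control range, and the others lay below it. The difference of the log2 ratio was -0.77 between model and control (exact permutation p = 0.2, two-sided) and 0.14 between SYD and model (exact permutation p = 0.6).

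Vegfa to Hif1a was uniform in control libraries, at 0.384, 0.377, and 0.333. In model libraries it was 1.28, 0.376, and 1.09, and in SYD libraries 2.08, 0.454, and 1.33, so library 2 again stood near the controls in both groups. The log2 difference between model and control was 1.15 (exact permutation p = 0.3). Vegfa to Vegfb was 1.44 to 2.67 in control and 1.28 to 3.35 in model libraries, and 6.48, 1.72, and 7.14 in SYD libraries, a log2 difference of 1.18 between SYD and model (exact permutation p = 0.2).

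Angpt1 to Angpt2, the balance of TIE2 agonist to antagonist, was above 1 in each control library (1.10, 1.46, and 1.09). It was 0.394 and 0.150 in model libraries 1 and 2, while library 3 had no Angpt2 read, and 0.624, 0.252, and 0.740 in SYD libraries. The log2 difference between model and control was -2.31 over the 2 model libraries with a ratio (exact permutation p = 0.2, the smallest that 2 against 3 allows). The library left out, with 4.003 FPKM of Angpt1, lay on the other side, and with a pseudocount of 0.1 that keeps it the difference was 0.21, so that the direction turned. Flt1 to Kdr, the VEGFR1 to VEGFR2 ratio, was below 1 in every control library (0.850, 0.563, and 0.530). It was above 1 in the others that had reads for both, with 1.58 and 1.45 in model libraries 2 and 3 and 1.31, 1.03, and 1.18 in SYD libraries. The log2 difference was 1.26 between model and control (exact permutation p = 0.2) and -0.37 between SYD and model (exact permutation p = 0.2), and the latter was -0.17 with a pseudocount of 0.1. Epas1 to Pecam1, a ratio to an endothelial gene, was 1.20 to 2.10 in control, 0.661 and 2.23 in model libraries 2 and 3, and 0.877 to 1.31 in SYD libraries. Nrp1 to Flt1 was 3.03 to 4.74 in control, 1.61 and 4.16 in the same model libraries, and 1.49 to 1.98 in SYD libraries. With the pseudocount of 0.1, the model against control differences of Epas1 to Pecam1 (from -0.43 to 2.10) and Nrp1 to Flt1 (from -0.63 to 0.74) also turned, as it keeps model library 1, which had no read of Pecam1 or Flt1. Over the 14 tests of ratios the smallest Benjamini-Hochberg adjusted p was 0.56, and the number of libraries kept these tests from passing 0.05, so that they show neither a difference nor its absence.

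**Figure D4:**
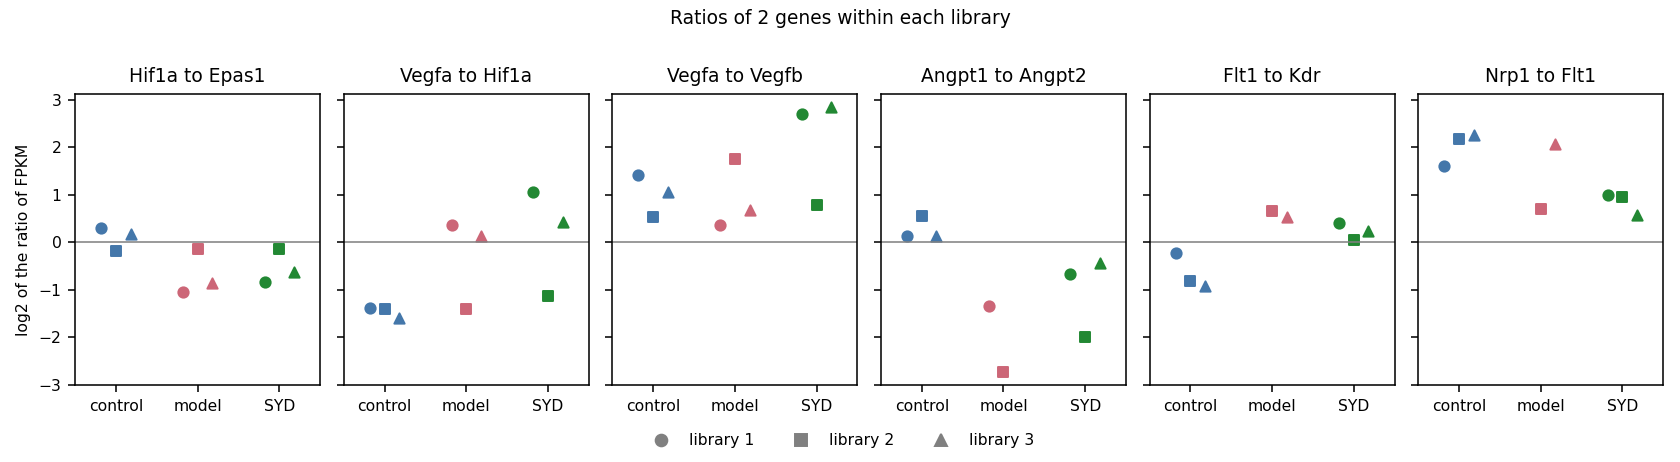
Log2 ratio of FPKM of 2 genes within each library, by group; marker shapes give the library number and libraries with no read for a gene are left out. Vegfa to Hif1a is near the control value in library 2 of the model and SYD groups, and Flt1 to Kdr lies above 0 in every model and SYD library shown and below 0 in every control library.

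The wider VEGF and angiopoietin pathway, a list of 28 genes of which 23 could be tested, held 0 genes with an adjusted p under 0.05 in model against control or SYD against model. In model against control 2 met the DEG criteria, Dll4 (1.63, SE 0.51), a Notch ligand of sprouting tip cells, and Apln (1.47, SE 0.47), the apelin peptide, both named after their values were seen, while 3.55% of all tested genes were called higher and 11.2% lower. In SYD against control 5 of the 23 rose and 0 fell by adjusted p, whereas 7.75% of all tested genes rose and 9.57% fell. Genes of this and the following lists were read from the main fit only, and their calls were not recomputed under the alternatives. Of all tested genes, 0% passed in this comparison with the replicate number as a block and 1.82% in 1 fit of all 9 libraries. The receptor Tek went from 3.43 ± 0.480 to 10.6 ± 1.17 FPKM (log2 fold change 1.39, adjusted p = 0.00901). Pgf, encoding placental growth factor, went from 2.49 ± 0.888 to 11.1 ± 3.75 FPKM (1.78, adjusted p = 0.0185), and Dll4 from 0.738 ± 0.281 to 5.73 ± 1.67 FPKM (1.94, adjusted p = 0.0106). The other 2 were the endothelial receptor Notch4 (1.39) and the endothelial phosphatase Ptprb (1.19). Of these 5, Tek and Ptprb were named after their values were seen. Kdr, the main signalling receptor for VEGF-A, given here because it enters a ratio above, differed by 0.17 on the log2 scale (SE 0.22, adjusted p = 0.618). The list median was 0.46, against 0 over all tested genes, and the endothelial marker sums, which include Tek and Kdr, were 207 to 263 FPKM in these SYD libraries against 67.4 to 100.3 in control.

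Regulators of HIF (17 of 20 genes tested) had 0 genes passing in model against control or SYD against model, with a list median of -0.66 against -0.23 for all tested genes in the former. In SYD against control 0 rose and 2 of the 17 fell by adjusted p, a share close to the 9.57% of all tested genes that fell. These were Hsp90aa1 (-1.25, SE 0.18, adjusted p = 0.0130), a chaperone that stabilises HIF-1α, and Ep300 (-0.83, SE 0.18, adjusted p = 0.0330), a co-activator. Arnt, the partner of both alpha subunits, lay at 6.55 to 7.09 FPKM in control, 5.79 to 10.05 in model, and 6.09 to 8.68 in SYD libraries. The prolyl hydroxylase gene Egln3, itself a HIF target, lay at 2.58 to 3.47, 0 to 2.91, and 1.20 to 3.29 FPKM. Arnt and Egln3 were named outside the fixed rule.

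HIF target genes other than the 10 (38 of 40 tested) both rose and fell. In SYD against control 2 rose and 4 fell by adjusted p, so that the 6 of 38 genes called were near the 17.3% of all tested genes called in either direction. The genes that rose were Ddit4 (2.52, SE 0.48, adjusted p = 0.0234), an inhibitor of mTORC1, and Ndrg1 (1.83, SE 0.43, adjusted p = 0.0404), a stress-response gene. Those that fell were Tf, encoding transferrin (-1.66, SE 0.38), the glycolytic genes Hk1 (-1.46, SE 0.24) and Pfkfb4 (-1.46, SE 0.22), and Tfrc, the transferrin receptor (-1.12, SE 0.26), with adjusted p from 0.0140 to 0.0384. Tfrc is highly expressed by erythroid precursors, whose marker sums ranged 6540 to 16261 FPKM in control and 1311 to 13572 FPKM in SYD libraries, and their part was not tested. Tfrc, too, was named after its values were seen. Ldha, a classical glycolytic target, read 73.6 to 94.2 FPKM in control, 70.0 to 85.9 in model, and 74.7 to 100.1 in SYD libraries. In model against control and in SYD against model, 0 of the 38 targets passed by adjusted p. By the DEG criteria 1 target was higher (Ddit4, 1.02) and 4 were lower (Hk1, Tf, Tfrc, and Hk2, from -2.42 to -1.21) in model against control, with a list median of -0.35, and 4 were higher and 0 lower in SYD against model, with a list median of 0.58 against 0.22 for all tested genes. Of all tested genes, 3.55% were called higher and 11.2% lower in the former and 3.62% higher in the latter. The medians of the other lists in SYD against model were 0.75 for the VEGF and angiopoietin pathway, 0.28 for HIF regulators, and 1.11 for the angiogenesis inhibitors below. The 4 higher ones were Ddit4 (1.50), Stc2 (1.78), Car12 (1.49), and Car9 (1.14), and the genes of both comparisons were named after their values were seen. In model libraries Car12 read 0 to 0.29 FPKM and Car9 0 to 0.558, both with a median of 0, and Stc2 read 0 to 2.698. Their SYD means were 2.56, 1.69, and 5.15 FPKM, against control means of 6.96, 1.51, and 3.61 in the same order. The part of the low depth of some model libraries in the calls of Car12, Car9, and Stc2 was not tested. Ddit4 read 5.70 to 15.9 FPKM in control, 16.7 to 24.0 in model, and 39.4 to 105.1 in SYD libraries, with no overlap between any of the groups.

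Angiogenesis inhibitors of cartilage and matrix (16 of 18 genes tested) held 0 genes passing by adjusted p in model against control or SYD against model. In SYD against control 3 of the 16 rose and 0 fell, beside 17.3% of all tested genes called in either direction and 7.75% that rose. They were Col18a1, the source of endostatin (2.61, SE 0.47, adjusted p = 0.0203), Timp1, an inhibitor of matrix metalloproteinases (2.14, SE 0.47, adjusted p = 0.0341), and Adamts1, a protease with anti-angiogenic domains (2.11, SE 0.32, adjusted p = 0.0149). The list median in this comparison was 0.75, against 0 over all tested genes. The marker sums of osteoblasts, synovial fibroblasts, and pericytes and smooth muscle given above for this comparison were also higher in every SYD than in every control library, and their part in these values was not tested. In model against control 1 gene met the DEG criteria as higher (Vash1, 1.06) and 3 as lower (Thbs1, -2.66, Cnmd, -4.07, and Matn1), all named after their values were seen, against 3.55% of all tested genes called higher and 11.2% lower. Cnmd, encoding chondromodulin, is also one of the chondrocyte markers, and it read 7.03 to 249 FPKM in control, 0 to 6.41 in model, and 3.38 to 54.0 in SYD libraries. Matn1, a cartilage matrix gene, had a mean of 7.92 FPKM in control and was at 0 in every model and SYD library. The plot of the pathway lists shows all tested genes of these 4 lists.

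**Figure D5:**
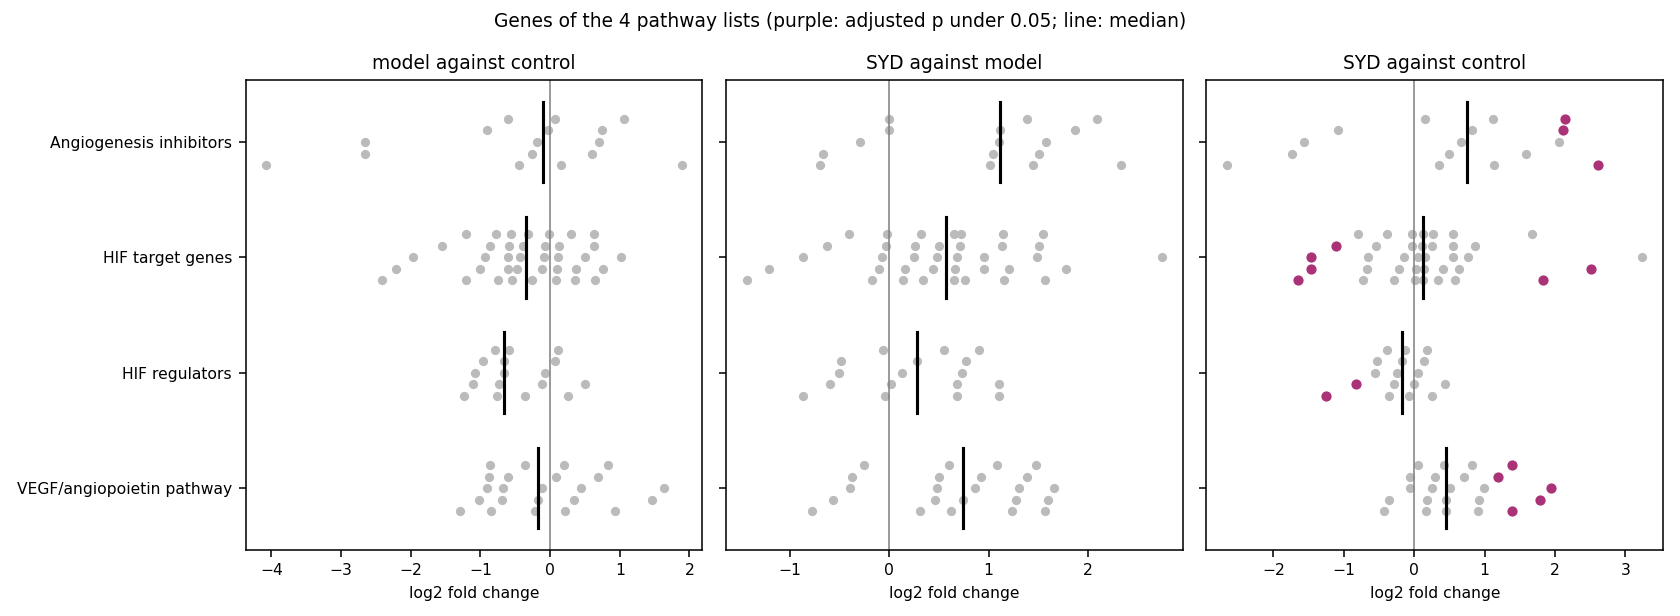
Log2 fold change of every tested gene of the 4 lists (points) with the list median (line), one panel per comparison; purple points have an adjusted p under 0.05. Purple points occur in SYD against control, with 5 genes to the right in the VEGF and angiopoietin list, 2 to the left among HIF regulators, 2 to the right and 4 to the left among HIF targets, and 3 to the right among inhibitors.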

How the data were processed

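RNA of rat knee cartilage was sequenced in 9 libraries, 3 per group, and groups were taken from the sample labels. The columns of the SYD group carry the library name CXTB, which the labels place under syd without explaining it, and the study also had a positive-control group named CXB, not analysed here. The authors deposited 1 table of FPKM per gene and library, and no other values were used. The submitters' processing notes name HISAT2 version 2.0.5 and the human build hg38, whereas the table lists rat genes. The counting tool and the rat build are not given in the sources used here, and chromosomes are those of the table.

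Whole reads were recovered as multiples of 1 step per library, and 100% of the values above 0 came out whole within a tolerance of 0.1. Recovered depth was 14914121 to 19510537 reads, and 3 reads were taken as the limit that a count of 0 allows, which covers counting error only. The main test was limma 3.58.1 (R 4.3.3) on log2(FPKM + 1), with eBayes and a trend, two-sided, in the 6 libraries of the 2 groups compared. Testing covered the 13898 genes whose mean FPKM reached 0.5, which included all 10, with Benjamini-Hochberg adjustment across them. Fold changes on this scale understate the change of low genes. Single genes and ratios were compared with exact permutation tests in SciPy 1.17.1. Ratios used FPKM with no pseudocount, and libraries with a 0 were left out of them.

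Alternatives were a pseudocount of 0.1, other filters, TPM with and without mitochondrial genes, quantile normalization, 1 fit of all 9 libraries, a replicate block, voom on recovered reads, and leaving out each library. Voom used the library sizes implied by the FPKM, so it did not rescale the libraries. A fit with model library 2 as the only model library was added after seeing the data. The 10 genes and the gene lists were chosen with earlier results of these data known. By rule, the text names all 10 genes and, per list and comparison, up to 3 genes higher and 3 lower with the largest change at an adjusted p under 0.05, with Kdr and Pecam1 for the ratios. Where none passed, the 3 genes with the highest mean FPKM were open to naming, of which the text uses Ldha. Other names are marked as chosen outside the rule or after their values were seen. Where a list name stood on more than 1 entry, the entry with the highest mean was used. List genes were read from the main fit only, and their calls were not recomputed under the alternatives. Replicate numbers were not used as pairs in the main test. Correlations of the deviations from the group means ran from -0.27 to 0.19 between libraries of the same number. Between libraries of different numbers they ran from -0.31 to 0.26. With 3 libraries per group, these values cannot exclude a pairing.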

Additional observations from a re-analysis of the deposited data

How the results depend on the processing

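In model against control, 0 of the 10 genes had an adjusted limma p under 0.05, and the count became 2 on TPM over all genes (where 69.6% of all tested genes passed), 5 with model library 2 alone (26.3%), and 0 to 1 when 1 library was left out (1 without model library 2, where 18.9% passed). The count of DEGs, 3, ran from 1 (without control library 2, with 9.42% DEGs over all tested genes) to 5 (without model library 3, 14.3%), and Epas1 was not among the 5. On TPM over all genes the count was also 3, but of other genes, all lower: Angpt1 (-2.86), Angptl4 (-2.74), and Nrp1 (-2.72). There 75.2% of all tested genes were DEGs. In SYD against model, the adjusted count was 0 at every setting. The 1 DEG was lost without model library 2, SYD library 1, or SYD library 3 (range 0 to 1). DEGs made up 4.15% of all tested genes with all libraries and 17.95% without model library 2, so that share rose where Angptl4 was lost. It fell to 2.27% without SYD library 1 and 3.73% without SYD library 3. In SYD against control, the adjusted count of 3 became 1 with a pseudocount of 0.1 (15.5% of all tested genes passed), 5 with voom (20.4%), and 0 with no filter (9.50%), with TPM over all genes (19.1%) or without mitochondrial ones (15.1%), with 1 fit of all 9 libraries (1.82%), and with the replicate block (0%), and it ran from 0 to 3 when 1 library was left out, with 0 without control library 1, 2, or 3 or SYD library 1. Epas1 passed in 0 of the 6 fits that left out 1 library, so the count of 3 there was not of the same 3 genes. The 4 DEGs became 0 on TPM over all genes, where 43.4% of all tested genes were DEGs. The replicate block changed no other count by more than 1.5 times. Of 94 recomputed counts 74 stayed within 1.5 times their main value.

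Single genes changed sign at the following settings. The cause was not tested at any of them. On TPM over all genes, the median of all tested genes itself moved to -2.60, 1.22, and -1.31 in the 3 comparisons. In model against control this median was -0.23 in the main fit. There it was -0.54 with a pseudocount of 0.1, -0.64 on TPM without mitochondrial genes, and -0.52 with voom. In model against control, the sign turned with a pseudocount of 0.1 (Vegfc -0.27, Angpt2 -0.75, and Flt1 -0.70), TPM over all genes (Vegfa -1.37, Vegfb -1.25, Vegfc -1.70, Angpt2 -2.08, Flt1 -1.78, Nrp1 -2.72, Hif1a -2.45, and Epas1 -1.79), TPM without mitochondrial genes (Vegfc -0.11, Angpt2 -0.56, Flt1 -0.59, and Nrp1 -0.18), and voom (Vegfc -0.61 and Angpt2 -1.06). In SYD against model, the sign turned with a pseudocount of 0.1 (Vegfc 0.17), TPM over all genes (Vegfb 0.90, Vegfc 0.36, Nrp1 1.19, and Epas1 1.51), TPM without mitochondrial genes (Nrp1 0.078 and Epas1 0.15), voom (Vegfc 0.14 and Hif1a -0.091), quantile normalization (Epas1 0.010), and model library 2 alone (Vegfb 0.24, Angpt2 -0.23, Flt1 -1.15, and Hif1a -0.87). In SYD against control, the sign turned with TPM over all genes (Vegfb -0.35, Angpt1 -1.11, Flt1 -0.37, Hif1a -0.89, and Epas1 -0.28) and quantile normalization (Vegfc 0.078). Over the fits that left out 1 library, the log2 fold changes that crossed 0 ran as follows: in model against control, Vegfc -0.14 to 1.36, Angpt2 -0.64 to 1.07, Flt1 -0.81 to 1.08, and Nrp1 -0.41 to 0.64; in SYD against model, Vegfc -1.36 to 0.13, Flt1 -0.24 to 1.66, Nrp1 -0.70 to 0.34, Hif1a -0.37 to 0.55, and Epas1 -0.34 to 0.17; in SYD against control, Vegfc -0.30 to 0.36, Angpt1 -0.14 to 0.52, and Nrp1 -0.26 to 0.27. Of the 14 differences of log2 ratios, the pseudocount of 0.1 turned 4, all of genes at 0 in a library. Angpt1 to Angpt2 went from -2.31 to 0.21 in model against control and from 1.00 to -1.48 in SYD against model, and Epas1 to Pecam1 and Nrp1 to Flt1 became 2.10 and 0.74 in model against control. Leaving out 1 library turned 7 of the 14, namely Epas1 to Pecam1 (-1.30 to 0.45 in model against control, -1.14 to 0.61 in SYD against model), Nrp1 to Flt1 (-1.32 to 0.052 and -1.22 to 0.15), Vegfa to Vegfb in model against control (-0.48 to 0.21), and, in SYD against model, Hif1a to Epas1 (-0.050 to 0.41) and Vegfa to Hif1a (-0.13 to 1.05). The depth of model library 1, with 1744769 reads outside the mitochondrial chromosome, limits what can be said of genes with few reads there, and a count of 0 allowed up to 0.452 FPKM of Angptl4.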
